A study of Mus musculus with 5 samples.

Results

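The genes described here encode receptors for the inhibitory transmitters GABA and glycine and the postsynaptic proteins that hold or move those receptors. They are 26 genes of the 23234 gene rows in the deposited table, found by their symbols: 15 GABA-A subunits, 2 GABA-B subunits, 5 glycine receptor subunits, and 4 scaffold, adhesion or trafficking genes. Other GABA-A subunits were not analysed here. The Ptf1a group (3 samples) was CD1 mouse embryonic cortex electroporated with a construct carrying Ptf1a and GFP, and the GFP-only group (2 samples) was the same tissue electroporated with GFP alone. In both groups embryos were electroporated at E12.5 (embryonic day) and harvested 3 days later at E15.5, and the cells were sorted for GFP from pools of 3 to 6 brains. What drives the construct is not given in the sources used here.

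GABA-A and glycine receptors are pentameric chloride channels. Their alpha, beta and accessory subunits set transmitter affinity, kinetics and location, and the glycine receptor beta subunit ties the receptor to gephyrin, the scaffold under inhibitory synapses. GABA-B receptors are instead G protein-coupled dimers. In the embryonic cortex GABA, glycine and taurine act before most synapses form, on receptors that contain the alpha2 glycine receptor subunit (Glra2) and the alpha2, alpha3 and alpha5 GABA-A subunits, and these receptors influence migration and proliferation. Ptf1a is a bHLH transcription factor needed for inhibitory neurons of the cerebellum, spinal cord and retina. By its title the study is about inhibitory and peptidergic traits that Ptf1a gives to pyramidal cells, and the comparison made here asks whether genes for receiving inhibition differed as well.

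Levels are the authors' group values in FPKM, fragments scaled to transcript length and library size, with 1 value per group. Single samples were not analysed here, so no SD, no overlap between samples and no depth can be given, and the error of a gene is known only through the authors' own test. The words rose and fell are kept for genes with a deposited q under 0.05. Log2 differences were computed as log2(FPKM + 0.1) with Ptf1a minus GFP-only. Ptf1a itself stood at 38.9 FPKM in the Ptf1a group and 0.210 FPKM in the GFP-only group, where reads of the construct and of the endogenous gene cannot be told apart.

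Some receptor subunit genes fell, none of those tested rose, and both adhesion genes among the 26, Slitrk3 and Nlgn2, rose. Of the 26 genes 13 carried a test, and of these 5 fell and 2 rose. Across all 11876 tested genes 19.1% fell and 18.7% rose, 37.7% in all. The falls were Glra2, Gabra5, Gabra2, Glrb and Gabarap, and the rises were Slitrk3 and Nlgn2. Taken by role, 4 of 9 tested receptor subunit genes fell and 0 rose by the authors' Cuffdiff test (1 was higher at an unadjusted p under 0.05, Gabrb1), whereas among the 4 scaffold, adhesion and trafficking genes 2 rose and 1 fell. The median log2 difference of the 13 tested genes was -0.19, beside -0.0088 over all tested genes. In sorted pools, fewer cells of a type and less RNA per cell cannot be told apart, and this applies to each difference given here. These counts are small and the genes were listed with earlier results of these data known, so the list as a whole is described and not tested. Fewer genes were called when the deposited statistic of each gene was read against a normal distribution, with Benjamini-Hochberg adjustment over all tested genes. Of all tested genes 6.1% were then called. Among the receptor and scaffold genes Glra2 alone was called, with an adjusted p of 0.0068 from the Cuffdiff statistic.

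**Figure D1:**
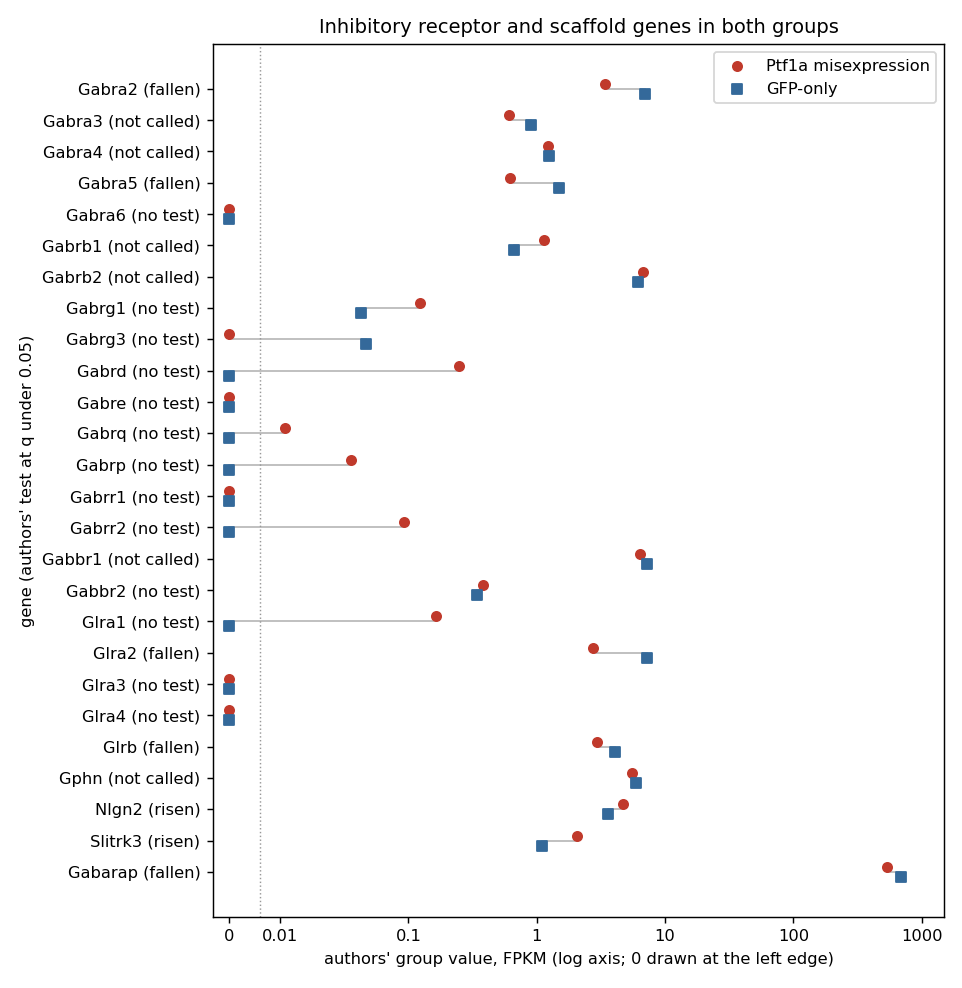
Authors' group value in FPKM on a log axis for each of the 26 genes, with Ptf1a misexpression as red circles, GFP-only as blue squares and values of 0 at the left edge. Glra2, Gabra2 and Gabra5 lie to the left with Ptf1a, Slitrk3 and Nlgn2 to the right, and the 13 genes without a test lie at or below 0.379 FPKM.

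Glra2 encodes the alpha2 glycine receptor subunit, the main alpha subunit of fetal brain. It stood at 2.76 FPKM with Ptf1a and at 7.26 FPKM in GFP-only cells, 2.63-fold lower with Ptf1a. In the authors' deposited table its log2 fold was -1.39, its statistic -3.71 and its q 0.000329. That q is the lowest the table holds and is shared by 1803 tested genes. The fold divided by the statistic, an implied standard error if the statistic is a fold over its error, was 0.38. Of all tested genes 1.1% had a lower log2 difference. The row lies at chromosome X, 161566949 to 161764913 (mm9).

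Glrb, the beta subunit that binds gephyrin, fell with a smaller fold, and the difference between the folds was not tested. Its value was 2.92 FPKM with Ptf1a and 4.05 FPKM in GFP-only cells, and in the authors' deposited table its log2 fold was -0.47 and its q 0.0282 (implied standard error 0.39). The ratio of Glra2 to Glrb was 0.946 with Ptf1a and 1.79 in GFP-only cells, so the alpha2 subunit transcript stood below that of the beta subunit in the Ptf1a group. This ratio has no error of its own and was not tested. Summed over the 5 glycine receptor genes, the level was 5.85 FPKM with Ptf1a and 11.3 FPKM in GFP-only cells. Glra2 made up 94.4% of the alpha subunit sum with Ptf1a and 100% in GFP-only cells. Glra1, the main adult alpha subunit in the spinal cord, stood at 0.163 FPKM with Ptf1a and was listed at 0 in GFP-only cells, in a row without a test. Glra3 and Glra4 were listed at 0 in both groups. The Glra4 row shares its locus with Morf4l2, an abundant gene, and BC065397.

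Among GABA-A alpha subunits 2 of the 4 tested genes fell and 0 rose, beside 19.1% fallen and 18.7% risen of all tested genes. Gabra2, common in young forebrain neurons, stood at 3.41 FPKM with Ptf1a and at 7.02 FPKM in GFP-only cells, 2.06-fold lower with Ptf1a (log2 fold -1.04, statistic -2.74 and q = 0.000329 in the authors' deposited table; implied standard error 0.38). Gabra5, a subunit of extrasynaptic receptors that is strong in hippocampus and developing cortex, was 2.38-fold lower, at 0.624 FPKM with Ptf1a and 1.49 FPKM in GFP-only cells. The authors' deposited table gives it a log2 fold of -1.25 and a q of 0.0031, and its implied standard error of 0.71 was the widest of the 7 called genes. Its log2 difference was -1.13, and -0.61 with a pseudocount of 1. Gabra5 shares its locus with the predicted gene Gm9962, listed at 0.319 FPKM with Ptf1a and 0.285 FPKM in GFP-only cells without a test.

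The other alpha subunits did not pass the test. Gabra3, another fetal subunit, had 0.607 FPKM with Ptf1a and 0.895 FPKM in GFP-only cells (q = 0.0958 in the authors' deposited table). For that gene the deposited p was 0.0427 beside a statistic of -0.88, an example of the gap between p and statistic. Gabra4, which forms extrasynaptic receptors in the mature forebrain, had 1.22 FPKM with Ptf1a and 1.24 FPKM in GFP-only cells (q = 0.941 in the authors' deposited table). Gabra6, known from cerebellar granule cells, was listed at 0 in both groups. The sum of the 5 alpha genes was 5.86 FPKM with Ptf1a and 10.6 FPKM in GFP-only cells. Gabra2 held 58.2% of that sum with Ptf1a and 66.0% in GFP-only cells, and Gabra4 held 20.8% with Ptf1a and 11.7% in GFP-only cells.

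Neither beta subunit passed the test. Gabrb2, a subunit of most adult GABA-A receptors, was the most abundant GABA-A gene of the list with Ptf1a, at 6.67 FPKM, against 6.10 FPKM in GFP-only cells (q = 0.443 in the authors' deposited table). Gabrb1 stood at 1.15 FPKM with Ptf1a and 0.661 FPKM in GFP-only cells, 1.73-fold higher, and missed the threshold (q = 0.0702 in the authors' deposited table; implied standard error 0.73). The ratio of Gabra2 to Gabrb2 was 0.511 with Ptf1a and 1.15 in GFP-only cells, a description with no test.

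**Figure D2:**
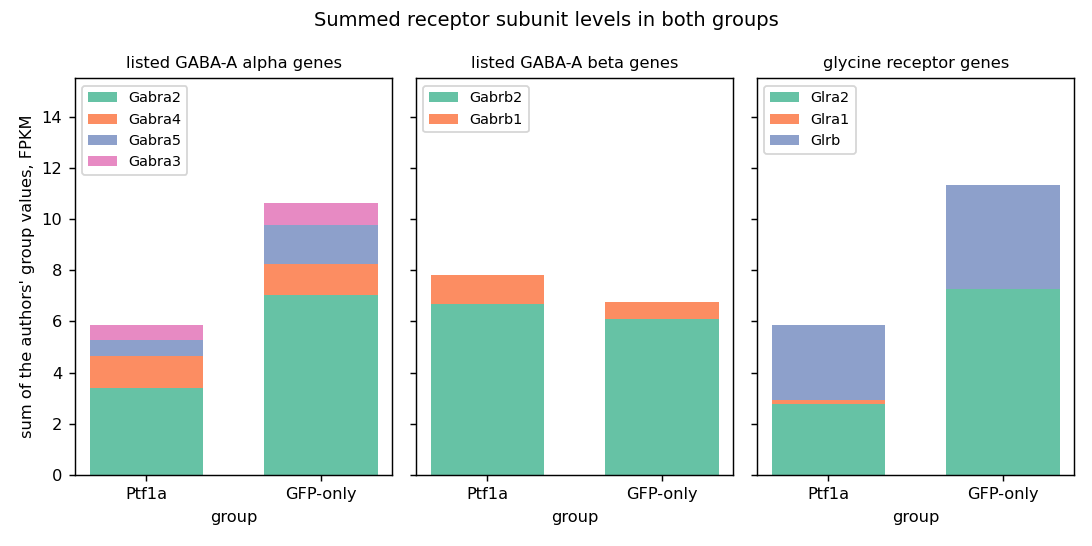
Stacked authors' group values in FPKM for the listed GABA-A alpha, GABA-A beta and glycine receptor genes, with Ptf1a misexpression as the left bar and GFP-only as the right bar of each panel. The alpha sum is 5.86 with Ptf1a and 10.6 FPKM in GFP-only cells, the glycine receptor sum is 5.85 with Ptf1a and 11.3 FPKM in GFP-only cells, and the beta sum is 7.82 with Ptf1a and 6.76 FPKM in GFP-only cells, without error bars because each group has 1 value; genes listed at 0 in both groups are not drawn.

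The accessory subunits were near the floor of the table. None of the 8 gamma, delta, epsilon, theta, pi and rho genes carried a test, and the highest value among them was 0.248 FPKM, for Gabrd with Ptf1a. Gabrd, the delta subunit of tonic receptors, was listed at 0 in GFP-only cells. Gabrg1 stood at 0.124 FPKM with Ptf1a and 0.0430 FPKM in GFP-only cells. Gabrg3 was listed at 0 with Ptf1a and at 0.0468 FPKM in GFP-only cells. Gabrr2, a rho subunit known from retina, had 0.0916 FPKM with Ptf1a, Gabrp had 0.0359 FPKM and Gabrq had 0.0110 FPKM, and each was listed at 0 in GFP-only cells. Gabre and Gabrr1 were listed at 0 in both groups. All 8 rows were marked NOTEST, and a listed 0 need not mean that the RNA was absent. At these levels no difference was detectable.

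Of the GABA-B subunits, Gabbr1, which binds GABA, had 6.36 FPKM with Ptf1a and 7.24 FPKM in GFP-only cells and did not pass (q = 0.286 in the authors' deposited table). Gabbr2, which carries the obligate partner to the surface and couples to G proteins, had 0.379 FPKM with Ptf1a and 0.344 FPKM in GFP-only cells in a row without a test. Gabbr1 was thus 16.8 times as high as Gabbr2 with Ptf1a and 21.0 times in GFP-only cells. Among 8 tested genes for GABA-B auxiliary subunits and effectors, 1 rose and 1 fell, beside 18.7% and 19.1% of all tested genes. The inhibitory G protein gene Gnai2 rose (35.2 FPKM with Ptf1a, 26.1 FPKM in GFP-only cells), and Kctd8, an auxiliary subunit, fell (0.232 FPKM with Ptf1a, 0.599 FPKM in GFP-only cells). Kcnj6, a potassium channel opened by GABA-B receptors that was chosen after its values were seen, had 1.00 FPKM with Ptf1a and 0.0449 FPKM in GFP-only cells but did not pass (q = 0.186 in the authors' deposited table).

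The gephyrin gene, Gphn, did not pass the test. It stood at 5.49 FPKM with Ptf1a and at 5.93 FPKM in GFP-only cells (log2 fold -0.11 and q = 0.608 in the authors' deposited table; implied standard error 0.35). Nlgn2, the neuroligin of inhibitory synapses, was 1.32-fold higher, with 4.71 FPKM with Ptf1a and 3.58 FPKM in GFP-only cells (log2 fold 0.40 and q = 0.0294 in the authors' deposited table; implied standard error 0.32). Slitrk3, an adhesion protein that promotes inhibitory synapses through the receptor phosphatase Ptprd, was 1.87-fold higher, with 2.05 FPKM with Ptf1a and 1.10 FPKM in GFP-only cells (log2 fold 0.90 and q = 0.000874 in the authors' deposited table; implied standard error 0.47). Its log2 difference of 0.84 became 0.54 with a pseudocount of 1. The ratio of Nlgn2 to Gphn was 0.859 with Ptf1a and 0.605 in GFP-only cells, again with no test. Neither Nlgn1 (2.26 FPKM with Ptf1a, 2.33 FPKM in GFP-only cells) nor Nlgn3 (2.60 FPKM with Ptf1a, 2.21 FPKM in GFP-only cells) passed; these relatives were chosen after their values were seen.

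Gabarap, a ubiquitin-like protein that binds GABA-A receptor gamma subunits and also serves in autophagy, was by far the most abundant gene of the list. It fell to 532 FPKM with Ptf1a, against 692 FPKM in GFP-only cells, 1.30-fold lower (log2 fold -0.38 and q = 0.000612 in the authors' deposited table; implied standard error 0.19). Abundant genes tended to be lower with Ptf1a: in the highest of 10 bins of mean expression, which holds Gabarap, the median log2 difference was -0.32 and 692 of 1188 genes fell. Relative to that bin Gabarap differed by -0.058. Glra2 and Gabra2 lie in bin 6, where the median was 0.0037, and relative to it they differed by -1.37 and -1.02. Weak genes tended to be higher with Ptf1a: in the lowest bin the median was 0.47, and 366 of 1188 genes rose and 53 fell. Slitrk3 lies in bin 3 (median 0.16) and Nlgn2 in bin 5 (median 0.076). Relative to these medians Slitrk3 differed by 0.69 and Nlgn2 by 0.31. Of the Gabarap paralogs, Gabarapl1 fell (104 FPKM with Ptf1a, 137 FPKM in GFP-only cells). The more abundant Gabarapl2 did not pass the test (455 FPKM with Ptf1a, 529 FPKM in GFP-only cells; q = 0.0735 in the authors' deposited table).

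**Figure D3:**
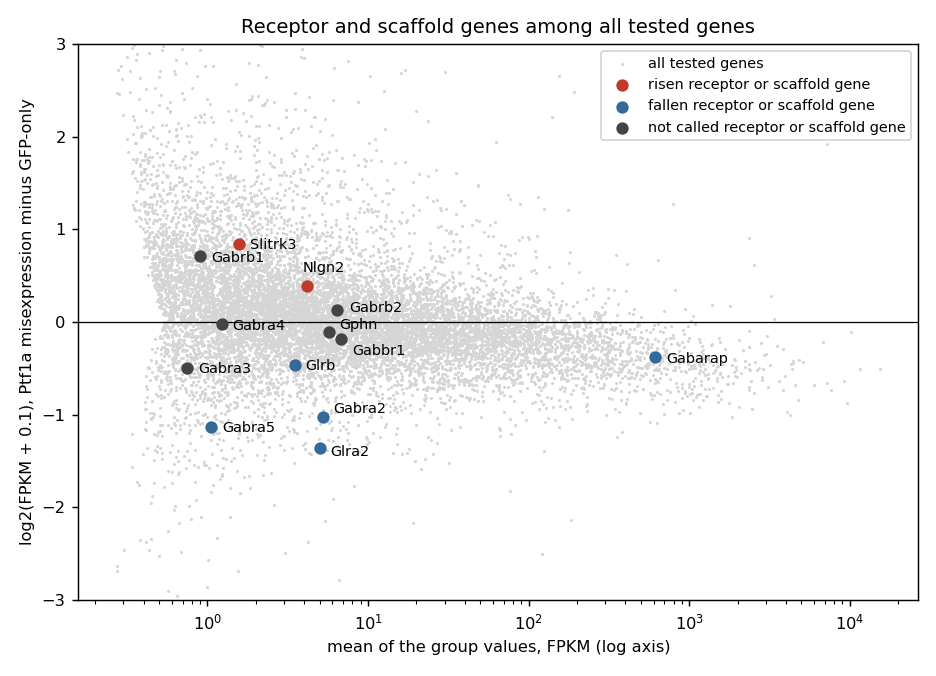
Log2 difference (Ptf1a misexpression minus GFP-only) against the mean of the group values in FPKM on a log axis, with all tested genes in grey and the 13 tested receptor and scaffold genes in colour; 121 genes lie outside the drawn range. Glra2, Gabra2 and Gabra5 lie below most genes of their level (differences of -1.36, -1.02 and -1.13), while Gabarap lies among other abundant genes.

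Several of these genes sit in clusters on the genome, and neighbours differed in their calls. On chromosome 5 (71142286 to 72528483, mm9) Gabrg1, Gabra2, Gabra4 and Gabrb1 lie within 1386 kb. Of these Gabra2 fell, Gabra4 and Gabrb1 did not pass the test, and Gabrg1 had no test. On chromosome 7 Gabra5 (64642642 to 64765379) lies 0.4 kb from Gabrg3, which was near 0. On chromosome 11 Gabrb2 (42233259 to 42446093) lies 98.7 kb from Gabra6, listed at 0 in both groups. On chromosome X Gabre, Gabra3 and Gabrq span 581 kb, and Gabra3 alone of them reached a test. Nlgn2 (69636625 to 69648351) and Gabarap (69804872 to 69808451) are 157 kb apart on chromosome 11 with 15 other gene rows between them, and had opposite calls.

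Promoter windows show what lies just upstream of the 3 subunit genes with the largest falls and the 2 adhesion genes that rose. Ptf1a binds with an E protein and Rbpj to a pair of short motifs, an E-box (CANNTG) and a TC-box (TGGGAA). The windows come from RefSeq on GRCm38.p6, run from 250 bases before to 50 bases after the start, and are written in the direction of transcription. They are chrX:165327344-165327643 on the minus strand for Glra2, chr7:57510010-57510309 on the minus strand for Gabra5, chr5:71095800-71096099 on the minus strand for Gabra2, chr3:73057017-73057316 on the minus strand for Slitrk3 and chr11:69837735-69838034 on the minus strand for Nlgn2. Capitals mark CANNTG or TGGGAA on either strand, so that a TC-box on the other strand reads TTCCCA.
Glra2: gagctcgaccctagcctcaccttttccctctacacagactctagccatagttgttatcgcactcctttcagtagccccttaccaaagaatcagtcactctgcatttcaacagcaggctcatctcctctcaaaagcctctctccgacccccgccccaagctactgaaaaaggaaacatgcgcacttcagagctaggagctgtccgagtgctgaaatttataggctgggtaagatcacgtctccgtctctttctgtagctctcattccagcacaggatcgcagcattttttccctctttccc
Gabra5: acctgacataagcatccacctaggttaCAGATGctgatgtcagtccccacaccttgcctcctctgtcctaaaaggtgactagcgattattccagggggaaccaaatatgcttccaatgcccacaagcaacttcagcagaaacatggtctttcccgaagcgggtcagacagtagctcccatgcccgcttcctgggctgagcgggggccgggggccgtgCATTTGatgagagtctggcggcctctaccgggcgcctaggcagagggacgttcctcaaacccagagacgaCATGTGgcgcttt
Gabra2: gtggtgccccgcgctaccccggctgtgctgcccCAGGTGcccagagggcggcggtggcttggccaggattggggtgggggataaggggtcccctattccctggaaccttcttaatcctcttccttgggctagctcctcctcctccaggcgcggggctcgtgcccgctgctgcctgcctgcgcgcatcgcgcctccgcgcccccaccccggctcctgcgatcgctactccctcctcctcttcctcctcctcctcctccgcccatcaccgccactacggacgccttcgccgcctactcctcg
Slitrk3: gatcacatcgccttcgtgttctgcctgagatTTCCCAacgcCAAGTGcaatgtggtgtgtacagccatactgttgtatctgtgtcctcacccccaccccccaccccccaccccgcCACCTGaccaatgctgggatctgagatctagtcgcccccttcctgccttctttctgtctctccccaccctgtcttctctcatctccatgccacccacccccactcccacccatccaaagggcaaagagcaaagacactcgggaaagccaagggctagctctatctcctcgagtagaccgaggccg
Nlgn2: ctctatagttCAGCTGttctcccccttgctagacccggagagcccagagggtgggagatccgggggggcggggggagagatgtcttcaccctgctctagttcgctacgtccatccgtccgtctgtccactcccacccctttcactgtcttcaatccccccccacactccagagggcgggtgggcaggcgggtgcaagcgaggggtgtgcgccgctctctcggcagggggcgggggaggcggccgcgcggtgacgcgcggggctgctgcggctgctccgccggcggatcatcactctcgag

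The Glra2 window held neither motif. Gabra5 held CANNTG at 3 places, with 1 of them also reading CATCTG on the other strand, and Gabra2 at 1 place. Slitrk3 held TTCCCA at position -219 from the start, CANNTG at -209 and a further CANNTG at -135. Nlgn2 held CAGCTG, which is also a CANNTG, at -240. In all, 24 of the 26 genes had a window. Because some genes have several starts this made 28 windows. CANNTG was in 46.4% of them and in 72.3% of all 32851 promoter windows of that length. TGGGAA was in 25.0% of them against 25.6% of all windows, CAGCTG in 10.7% against 16.3%, and CATCTG in 7.14% against 17.2%. Both CANNTG and TGGGAA with starts within 30 bases of each other, a criterion chosen after the windows were seen, occurred in Slitrk3 and Gabrq and in 7.2% of all windows. These are letter matches and say nothing of binding.

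Wider lists of the same pathway gave mixed calls, beside 18.7% risen and 19.1% fallen of all tested genes. Among 25 tested clustering partners 4 rose, 3 fell and 18 were not called, with a median log2 difference of -0.041. Iqsec3, an exchange factor that binds gephyrin, rose (1.18 FPKM with Ptf1a, 0.414 FPKM in GFP-only cells). The presynaptic neurexins split, with Nrxn3 risen (1.05 FPKM with Ptf1a, 0.579 FPKM in GFP-only cells) and Nrxn2 fallen (1.54 FPKM with Ptf1a, 2.89 FPKM in GFP-only cells). Dynll1, a dynein light chain that binds gephyrin, fell (390 FPKM with Ptf1a, 645 FPKM in GFP-only cells), as did the GABA-A accessory protein gene Lhfpl4 (2.79 FPKM with Ptf1a, 3.71 FPKM in GFP-only cells), chosen after its values were seen. Ptprd, which encodes the partner of Slitrk3, did not pass (5.13 FPKM with Ptf1a, 5.41 FPKM in GFP-only cells) and was likewise chosen after its values were seen. Among 18 tested trafficking genes 2 rose and 4 fell. The kinesin adaptor Trak2 rose (2.14 FPKM with Ptf1a, 1.35 FPKM in GFP-only cells), and Clptm1, which retains GABA-A subunits in the endoplasmic reticulum, fell (7.26 FPKM with Ptf1a, 10.1 FPKM in GFP-only cells).

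Of all tested genes 18.7% rose and 19.1% fell. On the side of transmitter supply and chloride balance 4 of 7 tested genes rose and 0 fell by Cuffdiff (1 was lower at an unadjusted p under 0.05), with a median log2 difference of 0.79. The GABA transporter Slc6a11 (3.11 FPKM with Ptf1a, 0.927 FPKM in GFP-only cells) and the GABA synthetic enzyme Gad2 (3.39 FPKM with Ptf1a, 1.05 FPKM in GFP-only cells) rose most. The other two were Gad1 (1.16 FPKM with Ptf1a, 0.522 FPKM in GFP-only cells), the second GABA synthetic enzyme, and the chloride importer gene Slc12a2 (1.25 FPKM with Ptf1a, 0.683 FPKM in GFP-only cells). The glycine transporters, chosen after their values were seen, had no test: Slc6a9 stood at 0.452 FPKM with Ptf1a and 0.489 FPKM in GFP-only cells, and Slc6a5 at 0.0563 FPKM with Ptf1a and 0.0497 FPKM in GFP-only cells.

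Other receptor families showed a different count. Of 11 tested ionotropic glutamate receptor genes 5 rose and 1 fell, with a median log2 difference of 0.31. The kainate receptor genes Grik2 (3.61 FPKM with Ptf1a, 1.99 FPKM in GFP-only cells) and Grik1 (0.561 FPKM with Ptf1a, 0.206 FPKM in GFP-only cells) were among the rises, and the AMPA receptor gene Gria3 was the fall (0.931 FPKM with Ptf1a, 1.5 FPKM in GFP-only cells). This stands beside 0 risen and 4 fallen of the 9 inhibitory receptor subunit genes, whose median was -0.46. Those 9 include Gabbr1, a subunit of the G protein-coupled GABA-B receptor, whereas the glutamate receptor list holds ion channels only. With at least 1 FPKM in either group the glutamate receptor rises were 3 and the fall stayed 1. Under that rule the 4 subunit falls kept their call. Of 4 tested cation channels in the pentameric superfamily 1 rose, the serotonin receptor gene Htr3a (1.73 FPKM with Ptf1a, 0.386 FPKM in GFP-only cells), and 0 fell, with 0 lower at an unadjusted p under 0.05. Of all tested genes 18.7% rose and 19.1% fell. The difference between these lists was not tested. The lists were not matched for level, though weak genes tended to be higher with Ptf1a.

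**Figure D4:**
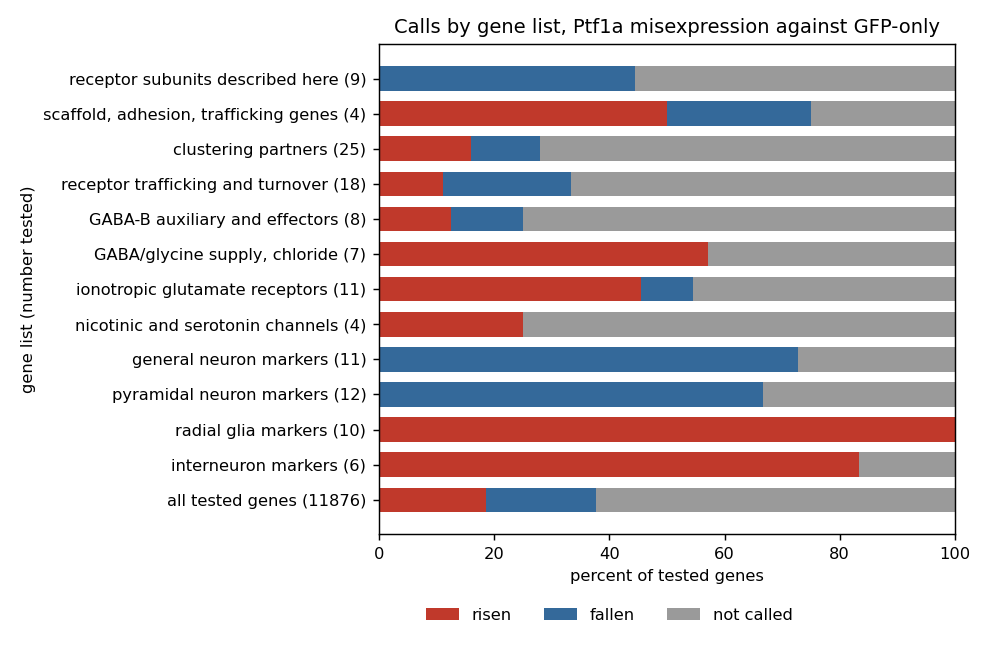
Percent of tested genes that rose, fell or were not called in Ptf1a misexpression against GFP-only, by gene list, with the number tested in brackets. Among inhibitory receptor subunits 4 of 9 fell and 0 rose, among ionotropic glutamate receptors 1 of 11 fell and 5 rose, and all tested genes stand at 19.1% fallen and 18.7% risen.

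Markers of cell state moved in the same comparison, in which 18.7% of all tested genes rose and 19.1% fell. The cells labelled as cortical pyramidal cells expressed pyramidal markers, with Neurod6 (chosen after its values were seen) at 1190 FPKM with Ptf1a and 1717 FPKM in GFP-only cells. Of 12 pyramidal markers 8 fell and 0 rose (1 was higher at an unadjusted p under 0.05), and their sum, most of it Neurod6, was 1357 FPKM with Ptf1a and 1933 FPKM in GFP-only cells, with a median log2 difference of -0.42. Of 11 general neuron markers 8 fell and 0 rose (0 were higher at an unadjusted p under 0.05), with a sum of 818 FPKM with Ptf1a and 1442 FPKM in GFP-only cells and a median log2 difference of -0.44. Of 10 radial glia markers 10 rose, with a median log2 difference of 1.42. Their sum was 3459 FPKM with Ptf1a and 1803 FPKM in GFP-only cells, of which Fabp7, the marker with the smallest fold of the 10, gave 3095 FPKM with Ptf1a and 1652 FPKM in GFP-only cells. Of 9 interneuron markers 6 were tested and 5 rose (sum 94.4 FPKM with Ptf1a, 48.4 FPKM in GFP-only cells). Most of that sum was Sst, the somatostatin gene, which rose (78.6 FPKM with Ptf1a, 41.3 FPKM in GFP-only cells) and was named after its values were seen. The other rises were Dlx5 (7.62 FPKM with Ptf1a, 3.94 FPKM in GFP-only cells), Lhx6 (1.72 FPKM with Ptf1a, 0.691 FPKM in GFP-only cells), and Gad1 and Gad2, which are the same rises counted under transmitter supply. The defining gene Slc32a1, without a test, stood at 0.104 FPKM with Ptf1a and 0.0658 FPKM in GFP-only cells, and Dlx6, also without a test, stood at 0.149 FPKM with Ptf1a and was listed at 0 in GFP-only cells. Cajal-Retzius markers summed to 7.94 FPKM with Ptf1a and 1.84 FPKM in GFP-only cells, with 3 of 3 tested risen. Microglial markers summed to 11.6 FPKM with Ptf1a and 16.6 FPKM in GFP-only cells (1 of 5 tested fell), vascular and meningeal markers to 6.78 FPKM with Ptf1a and 7.08 FPKM in GFP-only cells (1 of 3 fell), and red blood cell markers to 60.2 FPKM with Ptf1a and 141 FPKM in GFP-only cells (2 of 4 fell).

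The part of these shifts in the receptor differences was not tested. As a measurement, the differences were set against the median of the general neuron markers, an alternative chosen after seeing the data. Glra2, Gabra5 and Gabra2 stayed lower, by -0.92, -0.69 and -0.58 on the log2 scale. Glrb then differed by -0.021 and Gabarap by 0.060, a change of sign for Gabarap. Gphn stood at 0.33, Nlgn2 at 0.82 and Slitrk3 at 1.28 on that scale. The median hides a wide spread: before centring, the 11 general neuron markers ran from -1.20 to -0.10. Gabra5 (-1.13) and Gabra2 (-1.02) lie within that range, and Glra2 (-1.36) lies below it. The 12 pyramidal markers ran from -1.42 (Bhlhe22) to 0.42, and Glra2 lies within that wider range.

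**Figure D5:**
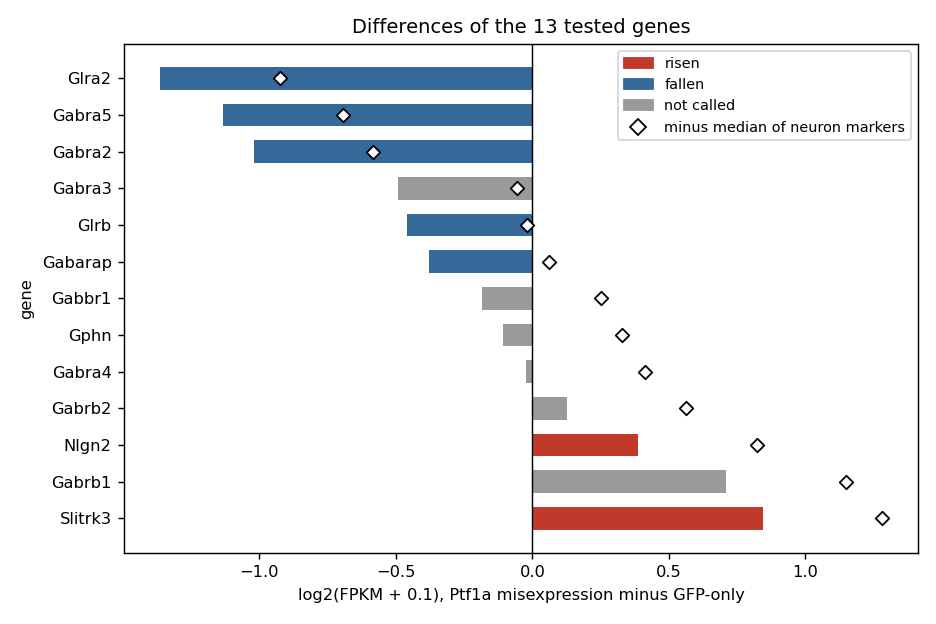
Log2 difference in FPKM + 0.1 (Ptf1a misexpression minus GFP-only) for the 13 tested genes as bars coloured by the authors' test, with diamonds for the same value minus the median of the general neuron markers (-0.44). Bars run from -1.36 for Glra2 to 0.84 for Slitrk3, and the diamonds of Glra2, Gabra5 and Gabra2 stay below 0 while those of Glrb and Gabarap lie at -0.021 and 0.060; no replicate error can be drawn.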

How the data were processed

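RNA from sorted embryonic mouse cortical cells was sequenced in 3 Ptf1a and 2 GFP-only samples. Per the labels' protocols, 2.1 to 7.8 ng of total RNA was amplified with a low-input kit, with 10 cycles of library amplification, and read as 50 bp pairs; such amplification can add variation to weak genes. The submitters' processing notes name the build mm9 and the tools Cuffdiff, Cufflinks 2.1.1, TopHat2 2.0.8 and CASAVA 1.8.2; annotation and parameters are not given in the sources used here. Per the file headers the deposited table holds, for each of 23234 genes, 1 FPKM value per group, a log2 fold change (PIG over GFP), a signed test statistic (a score), and a p-value and q-value. The heading PIG was taken to mean cells with the Ptf1a construct, since GFP heads the other column. The deposited FPKM values carry no counts, so depth is unknown.

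Here, a deposited q under 0.05 made a call, the same rows that the table marks; 11876 genes carried a test. Log2 differences used a pseudocount of 0.1, which understates changes of weak genes. Reading locus starts as counting from 0 matched the span length of a GENCODE M21 transcript for 5247 of 20792 loci, against 698 otherwise, and starts are printed counting from 1. Python 3.11.15 with pandas 2.3.3 and scipy 1.17.1 was used, and the adjustment and motif search were tested on simulated data. All 26 genes are named; from other lists, up to 4 called genes with the largest difference and up to 2 abundant uncalled ones could be named. The members and lists were chosen with earlier results of these data known. Nothing in the labels says whether brains came from separate litters, so the p-values of the authors' Cuffdiff test speak only for these samples.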

Additional observations from a re-analysis of the deposited data

How the results depend on the processing

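Counts moved with the call rule. The 2 risen genes became 1 (Slitrk3) at a q under 0.01 or with a 1.5-fold minimum, and 0 with a normal p of the statistic; at a q under 0.1 they were 3, with Gabrb1 added. The 5 fallen genes were 4 at a q under 0.01, 6 at a q under 0.1, 3 with the 1.5-fold minimum (Glra2, Gabra5 and Gabra2) and 1 with the normal p (Glra2). A minimum of 1 FPKM left 2 risen and 5 fallen of 12. Over all tested genes the share risen was 12.9% at a q under 0.01, 22.2% at a q under 0.1, 17.9% with the 1 FPKM minimum, 13.6% with the 1.5-fold minimum and 3.3% with the normal p. The share fallen was 12.9%, 22.7%, 21.1%, 8.05% and 2.8% under the same rules in the same order. Of 65 recomputed single-gene differences 61 kept their direction under other pseudocounts (1 and 0.01) and centrings. The exceptions were all under centring on general neuron markers, chosen after seeing the data: Gabarap (0.060) among the called genes and 3 uncalled genes. The median of the 13 genes was then 0.25 in place of -0.19. In the wider lists the normal p kept 2 of the 4 rises in transmitter supply and 1 fall among clustering partners, and no other call. With the 1.5-fold minimum the 4 falls of trafficking genes became 0 and the 5 risen glutamate receptor genes became 3. The glutamate receptor rises were also 3 at a q under 0.01 and with the 1 FPKM minimum. Samples could not be left out in turn, because the table holds 1 value per group. No paired analysis was possible because single samples were not analysed here. The 13 genes at or below 0.379 FPKM had no test, so differences there were not detectable.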
